A study of Homo sapiens with 3 samples.

Results

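The ERK feedback and output genes are a set of 10 genes that the RAS-ERK kinase cascade switches on: the MAP kinase phosphatases DUSP4, DUSP5 and DUSP6, the Sprouty genes SPRY2 and SPRY4, the SPRED genes SPRED1 and SPRED2, the early-response gene IER3 and the PEA3 transcription factors ETV4 and ETV5. They were chosen by symbol, and all 10 were found among the 22464 Ensembl gene identifiers of the deposited expression table. RNA sequencing was done on SK-Hep-1, an established human liver adenocarcinoma line, after stable lentiviral delivery of a short hairpin RNA. The sh1089-1 and sh1089-2 lines each carry their own hairpin directed at the lncRNA LINC01089, and the shNC line carries a negative control hairpin. Each group is 1 library, so no difference has a replicate check and no p-value is given. Whether a line is 1 clone or a pool of infected cells is not stated in the sources used here, and the level of LINC01089 was not analysed here.

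ERK is the last kinase of a cascade in which receptor signals pass through RAS, RAF and MEK. Active ERK induces its own inhibitors. The dual-specificity phosphatases remove the activating phosphates from MAP kinases, Sprouty proteins act between growth factor receptors and RAS, and SPRED proteins bring the RAS-inactivating protein NF1 to the membrane. ETV4 and ETV5 carry the signal into transcription, and CIC is a repressor of ETV4, ETV5, DUSP and SPRY genes that ERK inactivates. The mRNA levels of these genes are widely read as a gauge of ERK output, also in liver cancer, where the cascade is often active. Phosphorylated ERK was not analysed here.

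Promoter windows from RefSeq (GRCh38.p14), each running from 250 bases before an annotated start to 50 bases after it, were matched for 5 of the 10 members. A few of the windows are shown, picked with the expression values known. DUSP6 is a phosphatase gene that was lower in both hairpin libraries. SPRY4 is a Sprouty gene that was slightly lower, shown with a second window on the opposite strand inside the SPRY4 locus. SPRY2 is a Sprouty gene whose interval included no difference, and 1 of its windows is shown. Capitals mark matches, on either strand, to the CIC core TGAATG, the ETS core GGAAGT, the AP-1 site TGANTCA, the cyclic AMP response core TGACG and the serum response CArG box.
DUSP6, chr12:89352452-89352751, minus strand: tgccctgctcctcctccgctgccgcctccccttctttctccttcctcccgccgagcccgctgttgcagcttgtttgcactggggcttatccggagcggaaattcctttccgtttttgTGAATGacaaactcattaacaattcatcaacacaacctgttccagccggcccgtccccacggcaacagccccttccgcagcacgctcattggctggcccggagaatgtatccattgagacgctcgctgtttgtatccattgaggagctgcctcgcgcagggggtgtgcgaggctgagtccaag
SPRY4, chr5:142324198-142324497, minus strand: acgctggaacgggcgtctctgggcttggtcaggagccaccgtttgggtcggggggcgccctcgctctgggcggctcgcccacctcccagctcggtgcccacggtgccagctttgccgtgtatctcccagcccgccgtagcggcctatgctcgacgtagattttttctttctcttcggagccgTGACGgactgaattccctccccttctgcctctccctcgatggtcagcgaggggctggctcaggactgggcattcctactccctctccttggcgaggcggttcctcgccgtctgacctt
SPRY4-AS1, chr5:142325043-142325342, plus strand: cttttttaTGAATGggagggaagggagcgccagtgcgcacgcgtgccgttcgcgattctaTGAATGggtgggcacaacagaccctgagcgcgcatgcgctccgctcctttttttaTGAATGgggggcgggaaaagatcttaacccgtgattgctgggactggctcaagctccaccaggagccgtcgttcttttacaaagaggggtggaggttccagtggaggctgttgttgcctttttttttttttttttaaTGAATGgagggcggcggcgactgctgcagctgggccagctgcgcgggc
SPRY2, chr13:80341077-80341376, minus strand: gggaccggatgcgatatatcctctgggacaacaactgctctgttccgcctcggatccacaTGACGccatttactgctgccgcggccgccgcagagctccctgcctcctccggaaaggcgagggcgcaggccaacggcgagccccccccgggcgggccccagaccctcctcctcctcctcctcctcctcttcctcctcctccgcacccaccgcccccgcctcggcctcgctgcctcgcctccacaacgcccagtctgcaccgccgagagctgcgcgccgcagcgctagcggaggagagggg
The DUSP6 window held 1 match to the CIC core, and the SPRY4 and SPRY2 windows each held 1 match to the cyclic AMP response core. The window of SPRY4-AS1, an antisense gene that overlaps SPRY4, held 4 matches to the CIC core. Of 35116 windows in the RefSeq table, 11.8% held the CIC core and 24.6% the cyclic AMP response core, while 27 windows (0.0769%) held at least 4 matches to the CIC core. That cut equals the count in the SPRY4-AS1 window, which does not belong to a member, so the share is a description and not a test. The ETS core was in 22.8% of the windows, the AP-1 site in 7.71% and the CArG box in 1.29%, and none of these was in the 4 windows printed. No match overlapped another in the printed windows. Among member windows not printed, 1 of SPRED2 held 1 match to the CIC core and 2 to the AP-1 site. The other SPRED2 window held 1 match to the cyclic AMP response core, and a further SPRY2 window held 1 to the ETS core. The remaining SPRY2 window and the SPRED1 window held no match. A match is a description of the letters and not a bound site.

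The library totals behind the FPKM values were 9528312 reads (sh1089-1), 8359832 reads (sh1089-2) and 10698480 reads (shNC), as worked out from the steps between FPKM values. FPKM divides a gene's fragments by its length and by the size of the library. The members rested on 106 to 3070 reads per library, and all 10 passed the filter of a mean of at least 1 FPKM over the 3 libraries. Intervals given beside ratios are 95% Clopper-Pearson intervals on those reads, and they cover counting error only. Hepatocyte markers were nearly absent among those measured: APOA1, TTR and FGB were listed at 0 in all 3 libraries and HNF4A had 0, 4 and 1 reads in sh1089-1, sh1089-2 and shNC, while SERPINA1, the 1 marker to pass the filter of 5 in the table and 9 listed, had 5.91, 8.004 and 4.69 FPKM and the summed level of the list was 5.91, 8.07 and 4.70 FPKM. SK-Hep-1 is often described as endothelial in origin, but of 9 endothelial markers 8 were in the table and 0 passed the filter, and their summed level was 0.917, 0.702 and 1.11 FPKM. Of 6 mesenchymal markers 4 passed the filter, and they did not move together. VIM had 1171, 1445 and 922 FPKM, SPARC 229.9, 307.5 and 312.4 FPKM and FN1 18.5, 32.1 and 20.2 FPKM. THY1, with 12.2, 11.9 and 6.85 FPKM, was the 1 marker of that list past 1.5-fold in both hairpins, and its part in the differences of the members was not tested. Mitochondrial genes took 4.69%, 5.10% and 5.24% of the reads. In bulk samples, fewer cells that express a gene and less RNA per cell cannot be told apart.

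The members did not move as 1 block. The 3 phosphatases and IER3 were lower in both hairpin libraries than in shNC, ETV4 and ETV5 were higher, SPRY4 was slightly lower in both, SPRED1 was lower in sh1089-2, and SPRY2 and SPRED2 lay closer to the control. In all, 7 of 10 members were below shNC in both hairpin libraries, against 42.3% of the 11198 genes tested, and 2 of 10 were above it in both, against 33.3%. Counting error was exceeded in both hairpins by 5 lower members (DUSP4, DUSP5, DUSP6, SPRY4 and IER3), against 18.7% of 10059 protein-coding genes with at least 100 reads, and by 1 higher member (ETV4), against 16.2%. ETV5 fell just short in sh1089-1, where the lower bound of its ratio was 0.999. The median difference in log2(FPKM + 1) over the 10 members was −0.20 in sh1089-1 and −0.27 in sh1089-2. Over all genes tested it was −0.03 and −0.04. Both comparisons use the same shNC library, so a deviation of that library would appear in both. Proliferation markers moved with the hairpin libraries. The 8 markers were all higher than shNC in both hairpin libraries, and MKI67, CCNB1, BUB1 and AURKB passed 1.5-fold in each. CCNB1, which encodes cyclin B1, had 102.4 FPKM in sh1089-1 and 124.7 FPKM in sh1089-2, against 46.1 FPKM in shNC, and over the list the summed level was 385 FPKM in sh1089-1 and 396 FPKM in sh1089-2, against 212 FPKM in shNC. The part of these markers in the differences of the members was not tested.

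**Figure D1:**
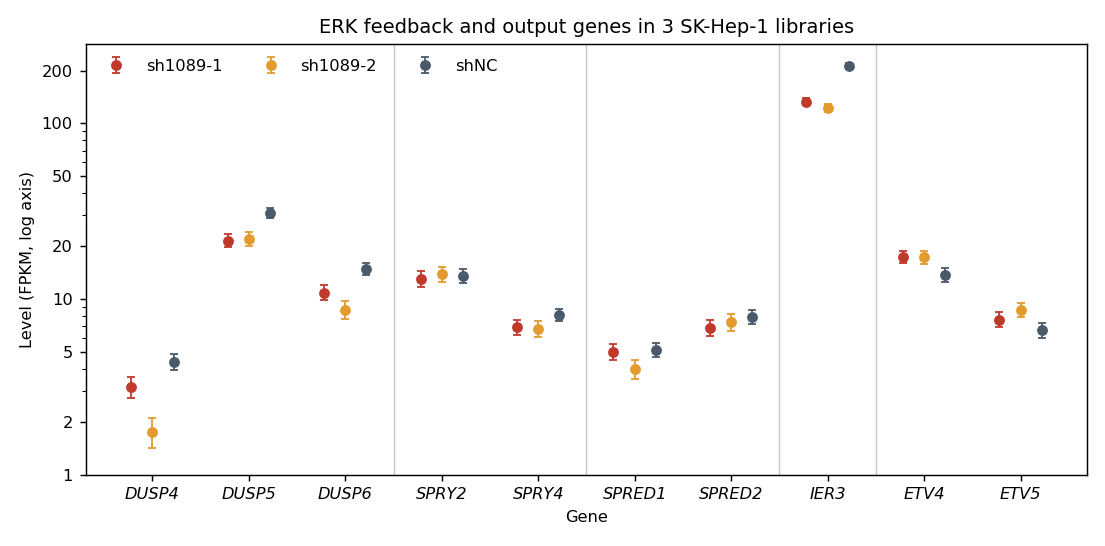
Levels of the 10 genes in FPKM on a log axis, with sh1089-1 in red, sh1089-2 in orange and shNC in grey; each point is 1 library and bars are exact 95% Poisson intervals on its reads. The shNC point is the highest of the 3 for DUSP4, DUSP5, DUSP6 and IER3, and the lowest for ETV4 and ETV5.

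The size of these differences was modest. At a threshold of 1.5-fold in log2(FPKM + 1), 1 of 10 members was lower in sh1089-1, where 5.83% of the 11198 genes were, and 3 of 10 were lower in sh1089-2, where 5.63% were. No member was 1.5-fold higher in sh1089-1 or in sh1089-2, where 5.27% and 4.89% of genes were. IER3 alone passed in both, against 2.79% of all genes. No member was 1.5-fold higher in both, against 3.08%. At a lower threshold of 0.32 on the log2 scale, DUSP4, DUSP5 and DUSP6 joined IER3, against 9.92% of all genes lower in both and 8.15% higher, and at 2-fold no member was left.

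Among the phosphatases, DUSP4 had the largest difference of any member in sh1089-2. In sh1089-1, IER3, DUSP5 and DUSP6 differed more on the scale of log2(FPKM + 1). By ratio, without the pseudocount, only IER3 and DUSP5 did, and DUSP4 (1.40-fold) and DUSP6 (1.37-fold) were close. DUSP4 (ENSG00000120875, chromosome 8, 29333064 to 29350668, minus strand) encodes a nuclear phosphatase that acts on ERK and on the stress-activated MAP kinases. It had 3.15 FPKM in sh1089-1 and 1.74 FPKM in sh1089-2, against 4.395 FPKM in shNC, on 218, 106 and 342 reads. All 3 libraries were separate beyond counting error, with sh1089-2 the lowest. DUSP4 was 1.40-fold lower in sh1089-1 than in shNC (1.18 to 1.66) and 2.52-fold lower in sh1089-2 (2.02 to 3.17). The sh1089-2 difference in log2(FPKM + 1), −0.98, was matched or exceeded downwards by 1.73% of the genes tested. It is the lowest expressed member, so the pseudocount of 1 shrinks this difference most. At a pseudocount of 5 the sh1089-2 differences of DUSP4 (−0.48) and DUSP6 (−0.54) no longer passed 1.5-fold, and both were smaller than that of IER3 (−0.77).

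DUSP5 (ENSG00000138166, chromosome 10, 110497838 to 110511544, plus strand) encodes a nuclear phosphatase selective for ERK. It had 21.5 FPKM in sh1089-1 and 22.0 FPKM in sh1089-2, against 31.0 FPKM in shNC. The hairpin libraries were alike and both lay below the control, 1.44-fold (1.29 to 1.61) and 1.41-fold (1.254 to 1.58). Its pseudogene DUSP5P1, which could share reads with it, had 10, 10 and 30 reads in sh1089-1, sh1089-2 and shNC, beside 520, 467 and 840 reads of DUSP5.

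DUSP6 (ENSG00000139318, chromosome 12, 89347232 to 89353271, minus strand), whose promoter window is printed above, encodes the cytoplasmic ERK phosphatase that is among the most used ERK readouts. It had 10.9 FPKM in sh1089-1 and 8.71 FPKM in sh1089-2, against 14.9 FPKM in shNC. The libraries stood in the same order as for DUSP4. DUSP6 was 1.37-fold lower in sh1089-1 (1.21 to 1.56) and 1.71-fold lower in sh1089-2 (1.49 to 1.98), and 11.7% and 3.50% of the genes tested lay at least as far below shNC.

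IER3, an early-response gene that NF-kB also induces and whose product affects cell survival, was the most abundant member in every library. IER3 (ENSG00000137331, chromosome 6, 30743199 to 30744554, minus strand) had 132.9 FPKM in sh1089-1 and 122.5 FPKM in sh1089-2, against 212.6 FPKM in shNC, on 1709, 1383 and 3070 reads. Both hairpin libraries lay well under the control and close to each other. It was 1.60-fold (1.51 to 1.70) and 1.73-fold (1.63 to 1.85) lower, and 4.10% and 2.74% of the genes tested lay at least as far below shNC. Of 6113 other protein-coding genes with a mean of at least 5 FPKM, those nearest to IER3 in the pair of differences were PLOD2, a collagen lysyl hydroxylase gene, SMURF2, a ubiquitin ligase gene of TGF-beta signalling, and FGF2, a growth factor gene. Their distances were 0.0184, 0.0394 and 0.0552 on the scale of log2(FPKM + 1), over 3 libraries. FGF2 had 13.7 FPKM in sh1089-1 and 13.3 FPKM in sh1089-2, against 23.2 FPKM in shNC.

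**Figure D2:**
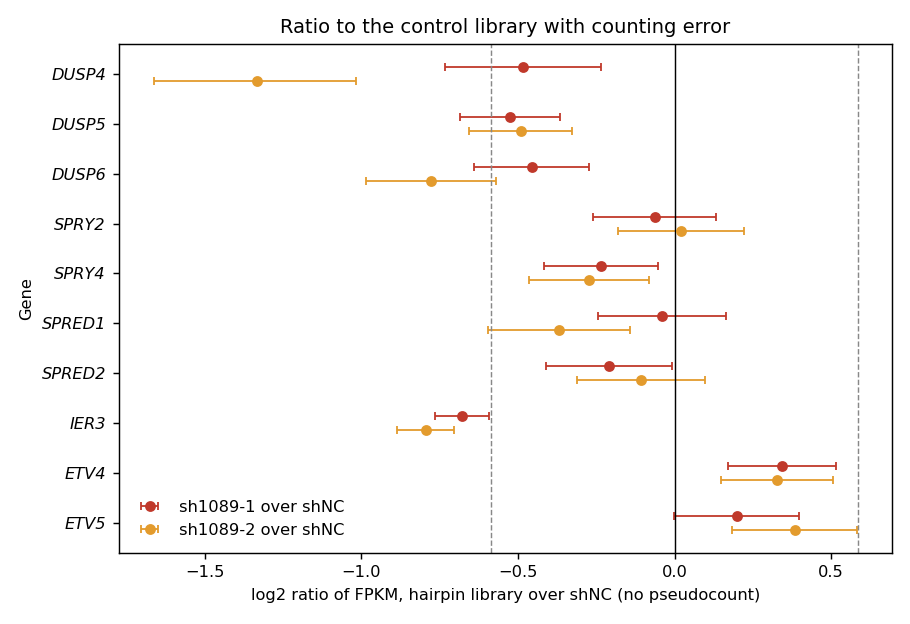
Log2 ratio of FPKM in sh1089-1 (red) and sh1089-2 (orange) over shNC, with no pseudocount; bars are 95% Clopper-Pearson intervals on reads and dashed lines mark 1.5-fold. The intervals of DUSP4, DUSP5, DUSP6, SPRY4 and IER3 lie below 0 in both hairpins and those of ETV4 above 0 in both, while SPRY2 spans 0.

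The Sprouty genes encode inhibitors of growth factor receptor signalling. SPRY2 (ENSG00000136158, chromosome 13, 80335976 to 80340951, minus strand) had 13.0 FPKM in sh1089-1 and 13.8 FPKM in sh1089-2, against 13.6 FPKM in shNC. Its hairpin libraries lay on opposite sides of the control, and the ratios of 0.957 (0.835 to 1.10) and 1.01 (0.883 to 1.17) both include 1. A difference larger than these bounds was not seen at this depth, while smaller ones were not detectable. SPRY4 (ENSG00000187678, chromosome 5, 142310427 to 142326455, minus strand) had 6.92 FPKM in sh1089-1 and 6.74 FPKM in sh1089-2, against 8.14 FPKM in shNC. It was lower in both by a small margin, 1.18-fold (1.04 to 1.34) and 1.21-fold (1.06 to 1.38).

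The SPRED genes gave no difference that exceeded counting error in both hairpins. SPRED1 (ENSG00000166068, chromosome 15, 38252326 to 38357249, plus strand), whose loss causes Legius syndrome, had 4.997 FPKM in sh1089-1 and 3.98 FPKM in sh1089-2, against 5.14 FPKM in shNC. Only sh1089-2 stood apart, 1.29-fold lower than shNC (1.10 to 1.51). SPRED2 (ENSG00000198369, chromosome 2, 65310851 to 65432637, minus strand) had 6.86 FPKM in sh1089-1 and 7.37 FPKM in sh1089-2, against 7.93 FPKM in shNC. Here sh1089-1 was the lower one, 1.16-fold below shNC (1.00 to 1.33), and the sh1089-2 interval included 1.

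ETV4 and ETV5, ETS-family activators that ERK output is known to raise, went the other way from the phosphatases. ETV4 (ENSG00000175832, chromosome 17, 43527844 to 43579620, minus strand) had 17.4 FPKM in sh1089-1 and 17.3 FPKM in sh1089-2, against 13.7 FPKM in shNC. The hairpin libraries were nearly equal and both above the control, by ratios of 1.27 (1.125 to 1.43) and 1.255 (1.11 to 1.42). ETV5 (ENSG00000244405, chromosome 3, 186046308 to 186110318, minus strand) had 7.64 FPKM in sh1089-1 and 8.68 FPKM in sh1089-2, against 6.65 FPKM in shNC. Its ratios were 1.15 (0.999 to 1.32), which includes 1, and 1.30 (1.14 to 1.498). These were ordinary sizes in this table: 14.99% and 14.1% of the genes tested lay at least as far above shNC as ETV4, and 26.5% and 12.3% as far as ETV5. ETV4 overlaps DHX8 on the opposite strand, and whether counting used the strand is not given in the sources used here. DHX8 had 7.31 FPKM in sh1089-1 and 9.20 FPKM in sh1089-2, against 9.72 FPKM in shNC, so it lay below the control where ETV4 lay above it.

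Ratios between members within a library do not depend on how libraries are scaled. DUSP6 per ETV5 was 1.42 in sh1089-1 (1.24 to 1.64) and 1.00 in sh1089-2 (0.859 to 1.17), against 2.24 in shNC (1.98 to 2.55). IER3 per ETV4 was 7.62 (6.93 to 8.38) and 7.10 (6.41 to 7.88), against 15.5 (14.1 to 17.0). Both ratios were lower in both hairpin libraries, with no overlap of the intervals with shNC. DUSP6 per SPRY2 was 0.835 (0.725 to 0.961) and 0.631 (0.538 to 0.738), against 1.10 (0.970 to 1.24). By contrast ETV4 per ETV5 was 2.284 (2.011 to 2.595) and 1.99 (1.74 to 2.27), against 2.07 (1.81 to 2.36), with overlapping intervals. These pairs were chosen after the values were seen.

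The order of the levels differed through DUSP6 and ETV5, and SPRED2 stood above SPRY4 in sh1089-2 only. IER3 was first, DUSP5 second and DUSP4 last in each library. In shNC, DUSP6 was the third, and its interval overlapped that of ETV4, which overlapped that of SPRY2. In both hairpin libraries ETV4 and SPRY2 stood above DUSP6, clear of its interval in sh1089-2, while in sh1089-1 SPRY2 and DUSP6 overlapped. ETV5 stood above SPRY4 in both hairpin libraries, with overlapping intervals in sh1089-1 and separate ones in sh1089-2, while in shNC it stood below SPRY4 with separate intervals. SPRED2 overlapped both of them in each library.

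**Figure D3:**
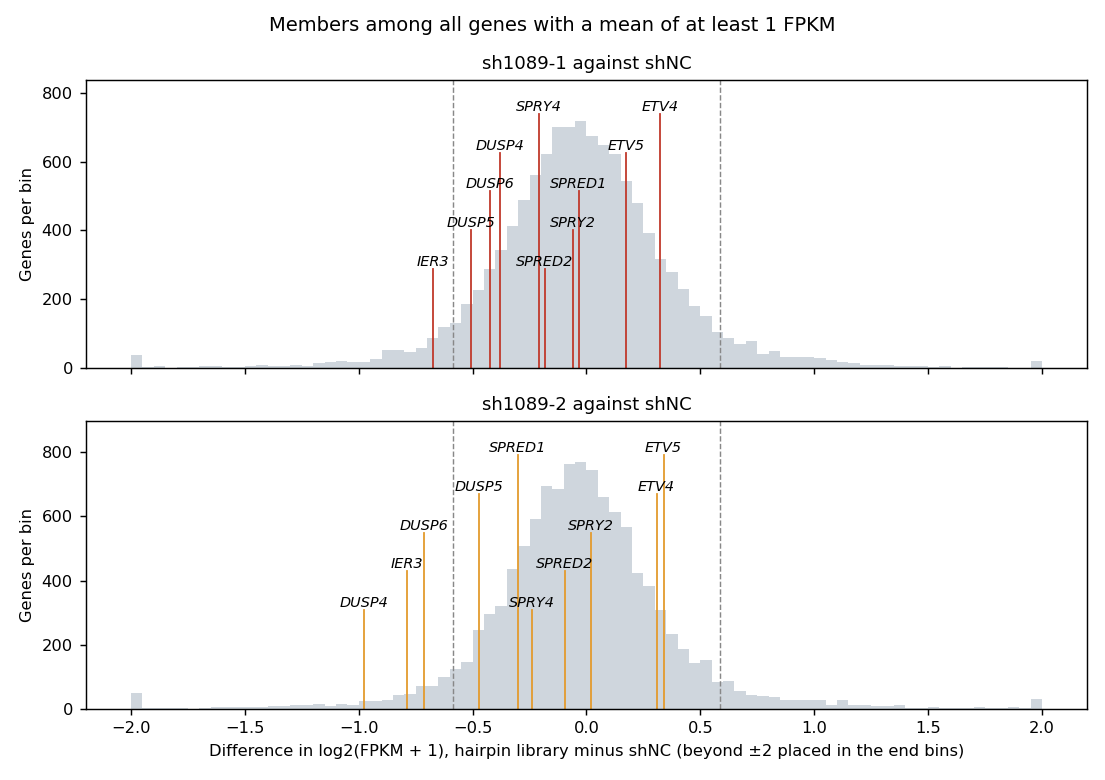
Distribution of the difference in log2(FPKM + 1) over 11198 genes, sh1089-1 minus shNC above and sh1089-2 minus shNC below, with the 10 members drawn as labelled lines and 1.5-fold as dashed lines. IER3 is the only member outside 1.5-fold in the upper panel, and DUSP4, IER3 and DUSP6 are outside it in the lower one.

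The hairpin libraries were also set against each other, without the control. In sh1089-2, 4 of 10 members lay below sh1089-1 beyond counting error, against 21.4% of the 10059 protein-coding genes, and 0 lay above it, against 18.6%. They were DUSP4, DUSP6, SPRED1 and IER3. The count holds for the deposited FPKM scale, on which the upper bound of the IER3 ratio, 0.991, was close to no difference. DUSP4 alone was 1.5-fold lower, as were 2.3% of the 11198 genes, and no member was 1.5-fold higher, as were 2.47%. The DUSP4 difference of −0.60 no longer passed with upper quartile scaling (−0.57) or a pseudocount of 5 (−0.27). DUSP4 was 1.80-fold lower in sh1089-2 than in sh1089-1 (1.42 to 2.30). DUSP6 was 1.249-fold lower (1.07 to 1.46), SPRED1 1.255-fold (1.07 to 1.48) and IER3 1.08-fold (1.01 to 1.16). The median over the 10 members was −0.02, beside −0.01 over all genes, and its sign turned when libraries were rescaled to TPM.

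The relatives of the members show how much of each family the members make up. DUSP1, the immediate-early phosphatase of the stress kinases and ERK, made up 73.0% of the summed FPKM of the nuclear inducible phosphatases in sh1089-1 and 77.7% in sh1089-2, against 72.1% in shNC. DUSP1 had 66.7 FPKM in sh1089-1 and 82.7 FPKM in sh1089-2, against 91.2 FPKM in shNC. The summed level of that group was 91.4 and 106.4 FPKM, against 126.6 FPKM. Among the cytoplasmic ERK phosphatases DUSP6 made up 46.6% and 42.5%, against 54.2% in shNC. DUSP7 had 10.7 FPKM in sh1089-1 and 8.82 FPKM in sh1089-2, against 10.02 FPKM in shNC. In the Sprouty family SPRY1 had 2.28 FPKM in sh1089-1 and 1.84 FPKM in sh1089-2, against 3.92 FPKM in shNC. SPRY1 was lower than shNC in both, by ratios of 0.582 (0.443 to 0.759) and 0.470 (0.345 to 0.634), while SPRY2 took 58.6% and 61.7% of the family's FPKM, against 53.0% in shNC. SPRED3 had ratios of 0.700 (0.553 to 0.883) and 0.693 (0.541 to 0.883). The summed PEA3 level was 27.2 FPKM in sh1089-1 and 28.4 FPKM in sh1089-2, against 22.6 FPKM in shNC, and ETV1, the third factor of that family, had 2.15, 2.44 and 2.17 FPKM in the same order.

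**Figure D4:**
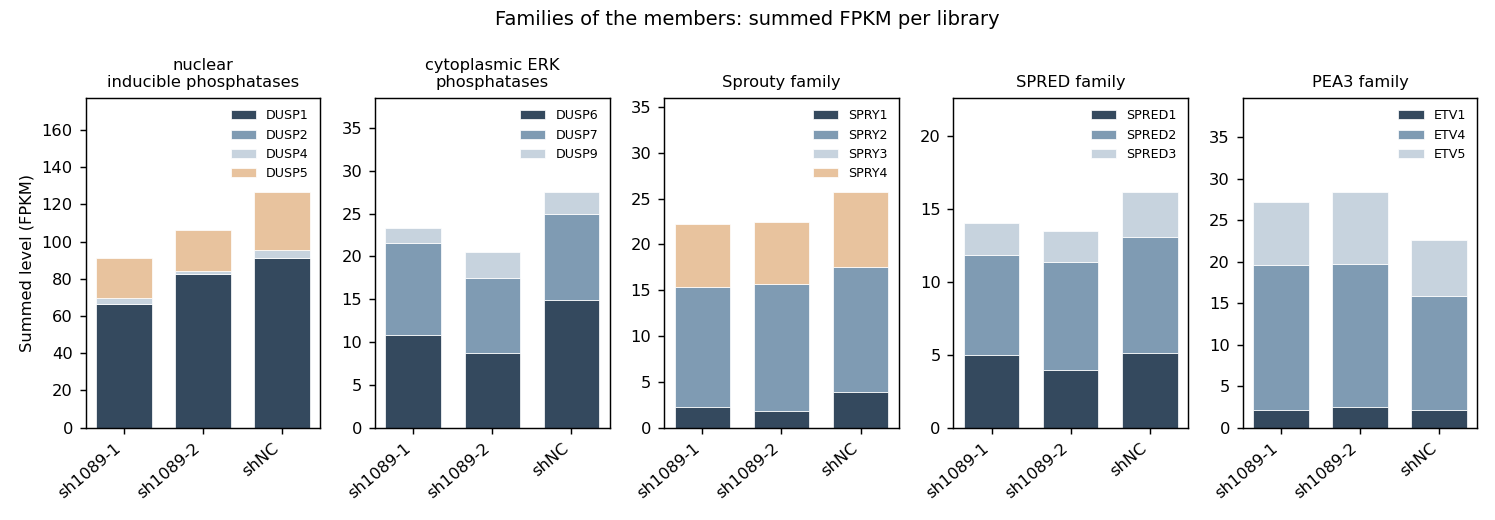
Summed FPKM of the families of the members in each library, stacked by gene, with a separate linear axis for each family. The bars of the phosphatase, Sprouty and SPRED families are lower in sh1089-1 and sh1089-2 than in shNC, and the PEA3 bars are higher. DUSP2 is listed at 0 in each library and SPRY3 has at most 3 reads.

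Over the 13 relatives, 10 passed the filter, with medians of −0.25 in sh1089-1 and −0.01 in sh1089-2. None was 1.5-fold lower or higher in both, and SPRY1 was 1.5-fold lower in sh1089-2. SPRY1 sat on the threshold in sh1089-1, at −0.58. Beyond counting error in both hairpins, 3 were lower (DUSP1, SPRY1 and SPRED3) and 1 was higher (IER5), beside the same shares of 18.7% and 16.2%.

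The other ERK output genes lay on both sides of the control. Of 22 listed, 18 passed the filter, with medians of −0.24 in sh1089-1 and −0.20 in sh1089-2, and none passed 1.5-fold in both. Beyond counting error in both, 9 were lower and 4 were higher, beside the 18.7% and 16.2% of protein-coding genes given above. The lower ones were JUNB, MYC, PHLDA1, EREG, TGFA, LIF, PLAUR, UPP1 and MCL1, and the higher ones FOSL1, CCND1, SPHK1 and ODC1. UPP1, a uridine phosphorylase gene, had 18.8 FPKM in sh1089-1 and 15.2 FPKM in sh1089-2, against 28.0 FPKM in shNC. CCND1, which encodes cyclin D1, had 111.1 FPKM in sh1089-1 and 102.0 FPKM in sh1089-2, against 83.3 FPKM in shNC. EGR1, an immediate-early factor, had 2.48 FPKM in sh1089-1 and 1.449 FPKM in sh1089-2, against 0.894 FPKM in shNC, on 74, 38 and 30 reads. Its ratio to shNC was 2.77 (1.79 to 4.39) in sh1089-1 and 1.62 (0.978 to 2.71) in sh1089-2, where the interval included 1. EGR2 and EGR3 were listed at 0 in each library. Single genes of these lists were picked for naming after their values were seen, apart from the cascade partners below.

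A set of 10 genes often used to score MAPK pathway activity holds 6 of the members and adds PHLDA1, CCND1, EPHA2 and EPHA4. Its medians were −0.13 in sh1089-1 and −0.10 in sh1089-2. In both hairpins, 5 of its 10 genes were below shNC, against 42.3% of the 11198 genes tested, and 3 were above it, against 33.3%. The remaining 2 were split. These counts by sign lie near the shares over all genes. Beyond counting error in both hairpins, 4 were lower (SPRY4, DUSP4, DUSP6 and PHLDA1), against 18.7% of the 10059 protein-coding genes. By the same measure 2 were higher (ETV4 and CCND1), against 16.2%. Both kinds of count include members counted above. PHLDA1 had 70.4 FPKM in sh1089-1 and 71.9 FPKM in sh1089-2, against 90.7 FPKM in shNC. EPHA2, an ephrin receptor gene, had 115.2 and 110.9 FPKM, against 113.2 FPKM in shNC.

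The kinases and partners on which the members act moved little. Of 31 listed, 29 passed the filter, with medians of −0.06 in sh1089-1 and −0.07 in sh1089-2, and none passed 1.5-fold in both. MAPK3, which encodes an ERK kinase, stood at 0.862 of its shNC level (0.771 to 0.964) in the sh1089-1 library and at 0.906 (0.808 to 1.02) in the sh1089-2 library. CIC had 15.8 FPKM in sh1089-1 and 15.8 FPKM in sh1089-2, against 14.9 FPKM in shNC, with intervals of its ratios from 0.981 to 1.13 and from 0.982 to 1.14. NF1, which SPRED1 brings to RAS, had 2.75 FPKM in sh1089-1 and 2.85 FPKM in sh1089-2, against 3.40 FPKM in shNC. CBL, a ubiquitin ligase that SPRY2 binds, had 5.44 and 6.99 FPKM, against 6.82 FPKM in shNC. CAV1, the caveolin that Sprouty and SPRED proteins bind, had 265.3 and 278.3 FPKM, against 247.7 FPKM in shNC.

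**Figure D5:**
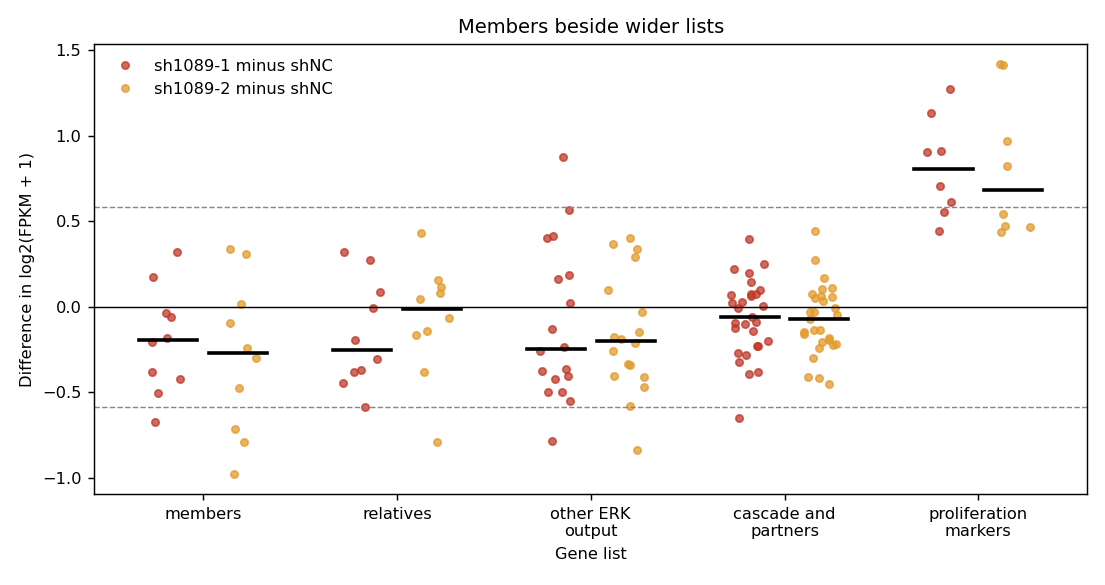
Difference in log2(FPKM + 1) of sh1089-1 minus shNC (red) and sh1089-2 minus shNC (orange) for genes of each list that passed the filter; each point is 1 gene, black bars are medians and dashed lines mark 1.5-fold. The members, the relatives and the other ERK output genes spread to both sides of 0, while the 8 proliferation markers are all above it.

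The surroundings of each member were taken as 50 protein-coding genes with a mean of at least 1 FPKM, the nearest 25 on each side by start position. Their median difference ran from −0.14 (SPRY4) to 0.02 (SPRY2) in sh1089-1 and from −0.13 (SPRED2) to 0.07 (DUSP4) in sh1089-2.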

How the data were processed

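The deposited table gives FPKM, as the authors computed them, for 22464 gene identifiers in 3 libraries. FastQC, StringTie and build GRCh38 are named in the submitters' processing notes, without versions, and the libraries came from enriched mRNA and kept strand, per the labels' protocols. The aligner, the annotation release and whether counts used strand are not stated in the sources at hand. Symbols matched 20952 identifiers. Coordinates are those of GENCODE release 29 on GRCh38. Reads and library totals were recovered by finding a gene length that made all 3 FPKM values whole reads within 0.002 reads, plus a rounding allowance. A length was found for 99.4% of 19204 genes above 0, the one nearest to GENCODE being taken, and the recovery was tested on simulated data. Reads carry no molecular identifiers. Differences are in log2(FPKM + 1), a scale that understates the change of low genes, over 11198 genes with a mean of at least 1 FPKM, while ratios carry no pseudocount. With 1 library per group no test was run. All members were named, and from the other lists any gene past 1.5-fold in both hairpins and 6 fixed partners, 1 of which is not reported here; other genes were named after their values were seen. The members and lists were chosen with earlier results of these data known. Python 3.11.15, scipy 1.17.1 and pandas 2.3.3 were used.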

Additional observations from a re-analysis of the deposited data

How the results depend on the processing

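The median difference of the members kept its sign against shNC under every scaling, pseudocount and filter tried, between −0.23 and −0.13 in sh1089-1 and between −0.31 and −0.17 in sh1089-2. Between the hairpin libraries the median of −0.02 turned to 0.0206 on TPM, 0.00726 with upper quartile scaling and 0.00889 at a mean of at least 5 FPKM, which leaves out DUSP4 and SPRED1. Summed FPKM was 312832 in sh1089-1 and 302642 in sh1089-2, and the upper quartile was 16.08 and 15.71 FPKM. Both scalings therefore raise sh1089-2 values relative to sh1089-1. The median over all genes that passed the filter turned as well, from −0.01 to 0.0372 on TPM and 0.0152 with upper quartile scaling. The count of members past 1.5-fold in both hairpins, 1, became 4 at a threshold of 0.32 on the log2 scale and 0 at 2-fold, and it stayed at 1 under the pseudocounts, filters and scalings. In sh1089-2 alone, DUSP4 and DUSP6 dropped out at a pseudocount of 5, and DUSP4 between the hairpins there and with upper quartile scaling. Resting on a single hairpin it ran from 1 (sh1089-1) to 3 (sh1089-2). Depth limits the members near the control: intervals of SPRY2, and of SPRED1, SPRED2 and ETV5 in 1 hairpin each, include 1. Counts of intervals clear of 1 were taken on the deposited FPKM scale and were not repeated under the other scalings. No paired analysis was possible because each group is 1 library.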
